A study of Gallus gallus with 2 samples.

Results

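The core circadian clock genes described here are ARNTL, CLOCK, CRY1, CRY2, PER2, PER3 and NR1D2. They were taken by symbol from the gene list of the count matrices, and all 7 were present among 28951 genes. The data are single-nucleus RNA counts from chicken thymus, from 2 libraries labelled as female, 5 weeks and thymus, which form 1 group with replicates 1 and 2. No treatment, genotype or time of day is given in the labels, so no comparison with a clock phase can be made, and the levels below are those at the moment of sampling. The labels do not state that the libraries came from separate birds. With the library in the model, p-values measure how far differences between groups of nuclei varied between the 2 libraries. That spread may be technical.

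In vertebrates the clock runs as a feedback loop. ARNTL (also called BMAL1) and CLOCK form the activating pair, which binds DNA and switches on the PER, CRY and NR1D genes. PER and CRY proteins then enter the nucleus and block that pair, while NR1D2 (REV-ERB beta), a nuclear receptor, represses ARNTL. ROR receptors compete with it at the same sites and activate ARNTL, and casein kinases, phosphatases and ubiquitin ligases set how long PER and CRY last. Many tissues outside the brain, immune tissue included, carry such a loop.

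The members lie on 6 chromosomes of the GRCg7b assembly, by the RefSeq gene table of that build. ARNTL (ENSGALG00010021726) spans chromosome 5 from 7233721 to 7278510, and CRY2 (ENSGALG00010022046) lies on the same chromosome from 23477156 to 23497481. CLOCK (ENSGALG00010015364) is on chromosome 4 from 64577282 to 64632592. CRY1 (ENSGALG00010011282) is on chromosome 1 from 53637589 to 53672680. PER2 (ENSGALG00010025047) is on chromosome 9 from 5160274 to 5201322, and PER3 (ENSGALG00010018796) on chromosome 21 from 279116 to 298339. NR1D2 (ENSGALG00010001528) is on chromosome 2 from 37109303 to 37137142. The spans run from 19.2 kb for PER3 to 55.3 kb for CLOCK, and these are spans of the gene, not of its transcript. Whether reads in introns were counted is not given in the sources used here.

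The analysed nuclei numbered 4860 in replicate 1 and 5238 in replicate 2, with a median of 660 and 826 unique molecular identifiers (UMIs, each 1 captured RNA molecule) per nucleus. Between the libraries 13 barcode sequences were shared, 10 of them among analysed nuclei. Clustering without the clock genes gave 17 clusters, 12 of them T lineage with 9564 nuclei, or 94.7% of nuclei in replicate 1 and 94.8% in replicate 2. T-lineage stages were named from marker lists: 2 clusters as double positive (DP)-like, with RAG1 and TTC14 among their leading genes, and 2 as cycling DP-like, with UHRF1 and with ASPM. Each cluster is called below by such a gene. The others were 2 signalled-like clusters (led by HIVEP3 and by NR4A3), a gamma delta-like and a cycling gamma delta-like cluster, and a CD4 single positive-like cluster. The last 3 clusters stayed unnamed and are called by their leading genes CLGN, GNLY and CACNA1C, the last of which was cycling. The CLGN-led cluster had a double positive marker sum of 18398 and 19482 CPM, within the 13721 to 20923 CPM of the DP-like clusters. It stayed unnamed because its summed CD4, CD8A and CD8BP level, 841 CPM, was below the 1047 CPM of all T-lineage nuclei, so its differences from DP-like nuclei rest on that naming rule. The 174 epithelial-like nuclei carried a summed 7687 and 6840 CPM (UMIs per 1e6 UMIs) of 16 epithelial markers, against 17.6 and 17.2 CPM in T-lineage nuclei. Of 13 T-lineage markers, 9 were at 0 in the epithelial-like nuclei, and the sum of all 13 was 116 and 619.5 CPM there, against 19690 and 21895 CPM in T-lineage nuclei.

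Levels in CPM were taken from the summed UMIs of a cluster in each library. Across all T-lineage nuclei ARNTL had 764 UMIs in replicate 1 and 1083 in replicate 2, and PER2, at the other end, 194 and 229. Divided by gene span, the only length at hand, the T-lineage level averaged 5.03 CPM per kb for ARNTL and 4.46 for CRY2. It was 3.17 CPM per kb for CLOCK, 2.97 for NR1D2, 2.91 for PER3, 2.38 for CRY1 and 1.27 for PER2. Whether UMIs scale with gene span was not tested, so this order depends on that division. The 2 libraries differed in this order: CRY1 had 1.76 CPM per kb in replicate 1 and 3.01 in replicate 2. Of the 7 members it was the one whose libraries stood furthest apart. Its 95% Poisson intervals, which cover counting error only, did not meet in 4 of 12 T-lineage clusters. For CLOCK, CRY2 and NR1D2 this happened in 1 cluster each, and for ARNTL, PER2 and PER3 in none.

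Across the 12 T-lineage clusters, the level of 5 of 7 members differed in edgeR's quasi-likelihood F test, with Benjamini-Hochberg adjusted p over the 7936 genes tested. Of all tested genes 47.2% did so, and a share of 5 in 7 has to be read against that. The adjusted p was 7.58e-07 for ARNTL, 7.19e-05 for NR1D2, 0.00029 for PER2, 0.011 for CRY1 and 0.028 for CRY2. CLOCK and PER3, with adjusted p of 0.1 and 0.398, did not pass. When the library was left out of the model, 3 of 7 passed, and CRY1 (adjusted p = 0.15) and CRY2 (0.11) did not. CRY1 also missed the threshold with at least 400 genes per nucleus (0.13).

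Each of the other 10 clusters was then set against the mean of the 2 DP-like clusters, the resting stage that recombines its receptor genes. The 10 comparisons share the DP-like nuclei, so their calls are not independent. Of 70 member-by-cluster pairs 31 passed, 12 higher and 19 lower than in DP-like nuclei, where 29.0% of all 79360 gene-by-cluster pairs passed.  The calls fell on 5 members: ARNTL and NR1D2 lower outside DP-like nuclei, CRY1 and PER2 higher, and CRY2 lower in 1 cluster. For CLOCK and PER3 0 of 10 pairs passed in edgeR and 0 of 10 in DESeq2, with 2 and 1 pairs at an unadjusted p under 0.05.

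In the CACNA1C-led cycling cluster 4 of 7 members passed, 1 higher and 3 lower, where 38.1% of genes did (22.2% higher and 15.9% lower). In the CD4 single positive-like cluster 4 passed, 2 each way, beside 29.2% of genes (16.5% higher and 12.7% lower). The same count held in both signalled-like clusters, beside 25.5% of genes (15.5% higher and 9.95% lower) in the HIVEP3-led and 27.0% (14.7% higher and 12.3% lower) in the NR4A3-led one. These 4 clusters held the most member calls. With 1 higher and 2 lower, 3 members passed in the GNLY-led cluster (32.5% of genes, 19.9% higher and 12.6% lower), the gamma delta-like cluster (26.1%, 16.2% higher and 9.94% lower) and the cycling gamma delta-like cluster (35.4%, 21.8% higher and 13.6% lower). In both cycling DP-like clusters 1 member was higher and 1 lower, beside 29.5% of genes (19.4% higher and 10.1% lower) in the UHRF1-led and 25.8% (16.3% higher and 9.51% lower) in the ASPM-led one. The CLGN-led cluster had 2 members lower, beside 20.7% of genes (12.7% higher and 8.03% lower). Counted in either direction, a share of 2 in 7 is near the background of these last clusters. In the CLGN-led cluster both calls were lower, where 8.03% of genes were.

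ARNTL, which encodes 1 partner of the activating pair, was high in DP-like and cycling DP-like nuclei and lower elsewhere. Its level was 360 and 396 CPM in the ASPM-led cycling DP-like cluster and 315 and 261 CPM in the UHRF1-led one, against 337.6 and 339.8 CPM in the RAG1-led and 297 and 377.5 CPM in the TTC14-led DP-like cluster. The groups overlap, and neither cycling DP-like cluster passed the test. The other 8 clusters had between 91.9 and 215.5 CPM in 16 library values, all below the lowest DP-like value. Such a gap held for 6.7% of tested genes when the cycling DP-like clusters were set aside.

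All 8 passed, with log2 fold changes between -1.74 and -0.93 and adjusted p of at most 0.0021 in edgeR. The GNLY-led unnamed cluster had 91.9 and 139 CPM, for a log2 fold change of -1.74 (SE 0.23, adjusted p = 4.16e-06). The CD4 single positive-like cluster had 116 and 119 CPM, for -1.67 (SE 0.24). The HIVEP3-led signalled-like cluster stood nearest to DP-like, at 182 and 215.5 CPM and -0.93 (SE 0.21). These values were similar in the libraries taken singly, at -1.97 and -1.50 for the GNLY-led cluster and -0.97 and -0.87 for the HIVEP3-led one. The HIVEP3-led call was lost with at least 400 genes per nucleus (-0.65, adjusted p = 0.099) and at a finer clustering (-0.47, adjusted p = 0.15).

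CLOCK, the constant partner in the mammalian pair, ranged from 90.4 to 251.6 CPM over all 24 cluster and library values, and the groups overlapped. The highest mean was that of the UHRF1-led cycling DP-like cluster, at 248 and 247 CPM, against 182 and 109 CPM in the RAG1-led and 188.6 and 140.0 CPM in the TTC14-led DP-like cluster. Its log2 fold change over DP-like nuclei was 0.56 (SE 0.22, adjusted p = 0.063).

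NR1D2, the repressor of ARNTL, was lower in every other T-lineage cluster than in DP-like nuclei. The 20 values of the other clusters lay between 11.9 and 130.3 CPM, against 196 and 154 CPM in the RAG1-led and 170.4 and 199 CPM in the TTC14-led DP-like cluster. No value overlapped, which held for 5.17% of tested genes. All 10 comparisons passed in edgeR, with log2 fold changes between -2.94 and -1.09 and adjusted p of at most 0.038.

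The lowest NR1D2 levels were 15.4 and 32.6 CPM in the CACNA1C-led cycling cluster, from 3 and 12 UMIs (-2.94, SE 0.51, adjusted p = 9.6e-05 in edgeR). The NR4A3-led signalled-like cluster came next, with 46.1 and 18.9 CPM from 4 and 2 UMIs (-2.71, SE 0.63). The floor of 3 counts is 15.4 CPM in replicate 1 of the CACNA1C-led cluster and 28.4 CPM in replicate 2 of the NR4A3-led one. The CD4 single positive-like cluster had 55.5 and 11.9 CPM, from 11 and 4 UMIs (-2.73, SE 0.51). The cycling gamma delta-like cluster had 27.4 and 38.3 CPM (-2.61, SE 0.49), and the GNLY-led cluster 36.2 and 33.1 CPM (-2.57, SE 0.45). Single libraries moved some of these folds by more than 1.5 times. The value was -1.85 without replicate 2 and -3.93 without replicate 1 in the CD4 single positive-like cluster, and -3.73 without replicate 2 and -2.48 without replicate 1 in the CACNA1C-led cluster.

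The cycling DP-like clusters and the HIVEP3-led cluster (98.0 and 71.1 CPM, -1.26, SE 0.39) stood nearest to DP-like nuclei. NR1D2 had 55.2 and 130.3 CPM in the UHRF1-led cluster (-1.09, SE 0.39, adjusted p = 0.038) and 52.8 and 91.7 CPM in the ASPM-led cluster (-1.32, SE 0.41, adjusted p = 0.021). Both calls, and that of the HIVEP3-led cluster (adjusted p = 0.0502), were missed in DESeq2, where the cycling DP-like clusters had adjusted p of 0.098 and 0.052. Those 2 were also missed with at least 400 genes per nucleus (adjusted p = 0.17 and 0.11). Without replicate 1 the differences were -0.57 and -0.93, and without replicate 2 -1.87 and -1.79. ARNTL and NR1D2 thus parted in these clusters: the ARNTL level overlapped that of DP-like nuclei and the NR1D2 level did not.

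CRY1, which encodes a repressor of the activating pair, was by contrast lower by mean in the DP-like clusters than in the others. The NR4A3-led signalled-like cluster had 311 and 179.8 CPM, against 14.4 and 29.9 CPM in the RAG1-led and 18.1 and 42.6 CPM in the TTC14-led DP-like cluster. The DP-like clusters held the lowest means of the T lineage, from 52 UMIs in all. Its log2 fold change over DP-like nuclei was 3.10 (SE 0.54, adjusted p = 0.00016), and 2.24 without replicate 1 and 4.02 without replicate 2. The GNLY-led cluster had 119.8 and 141 CPM (2.16, SE 0.47), the cycling gamma delta-like cluster 125 and 107 CPM (2.06, SE 0.51) and the gamma delta-like cluster 105 and 103 CPM (1.85, SE 0.52). Without replicate 2 these gamma delta values were 2.76 and 2.51, and without replicate 1 1.49 and 1.43. Over the 20 values outside DP-like nuclei CRY1 ran from 29.9 to 311 CPM, and the groups overlapped.

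In edgeR CRY1 was higher in 9 of 10 clusters, with adjusted p between 0.00016 and 0.047. The CLGN-led cluster did not pass, at a log2 fold change of 1.17 (SE 0.52, adjusted p = 0.12). With at least 400 genes per nucleus 2 of the 9 remained, those of the NR4A3-led cluster (2.91, adjusted p = 0.0049) and of the cycling gamma delta-like cluster (1.73, adjusted p = 0.0498). Without the library in the model 5 of the 9 remained.

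The libraries disagreed on CRY1 in named clusters. The UHRF1-led cycling DP-like cluster had 29.9 CPM in replicate 1, with a 95% Poisson interval from counting of 15.9 to 51.1, and 186 CPM in replicate 2, with an interval of 151 to 227. The log2 fold change over DP-like nuclei was accordingly 0.72 without replicate 2 and 2.23 without replicate 1. The HIVEP3-led cluster (50.2 and 116 CPM), the CLGN-led cluster (30.5 and 97.4 CPM) and the CACNA1C-led cluster (56.5 and 144 CPM) were also apart. In the gamma delta-like, cycling gamma delta-like and GNLY-led clusters the intervals met. Between the libraries 12.6% of genes with 20 or more UMIs differed by more than 2-fold over all T-lineage nuclei, where CRY1 differed 1.72-fold, and 11.1% did so in the UHRF1-led cluster, where CRY1 differed 6.22-fold. With 1 sample a side, this difference has no test.

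CRY2, the other cryptochrome, stood apart in the CACNA1C-led cycling cluster. It had 5.13 and 24.5 CPM there, from 1 and 9 UMIs, against 103 and 112 CPM in the RAG1-led and 61.6 and 122 CPM in the TTC14-led DP-like cluster. Both values lay below every other T-lineage value. Its log2 fold change against DP-like nuclei was -2.74 (SE 0.54, adjusted p = 0.00039 in edgeR), and -2.31 without replicate 1 and -4.04 without replicate 2. The remaining 9 clusters, at -0.85 to 0.14, did not pass.

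PER2, a repressor that answers to many signals as well as to the clock, was higher in 3 clusters. The CD4 single positive-like cluster had 141 and 116 CPM, the HIVEP3-led signalled-like cluster 109.9 and 81.9 CPM and the NR4A3-led cluster 80.6 and 151 CPM, against 19.2 and 26.9 CPM in the RAG1-led and 39.9 and 42.6 CPM in the TTC14-led DP-like cluster.

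The log2 fold changes of PER2 were 1.87 (SE 0.34, adjusted p = 0.00023), 1.42 (SE 0.33, adjusted p = 0.003) and 1.71 (SE 0.41, adjusted p = 0.0032) in edgeR, in the order of the clusters just given. With at least 400 genes per nucleus the signalled-like calls were lost (adjusted p = 0.098 and 0.061) and the CD4 single positive-like one stayed (1.38, adjusted p = 0.038). Taken singly, the libraries gave 1.13 and 1.81 for the HIVEP3-led cluster. The ASPM-led cycling DP-like cluster had the lowest PER2 level, 21.7 and 17.8 CPM (-0.68, SE 0.44, adjusted p = 0.29).

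PER3 ranged from 11.8 to 85.1 CPM over the 24 values, against 47.9 to 65.3 CPM in DP-like nuclei, and the groups overlapped. Its largest difference was in the ASPM-led cycling cluster, at 43.5 and 11.8 CPM (-1.07, SE 0.47, adjusted p = 0.10), which did not pass.

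**Figure D1:**
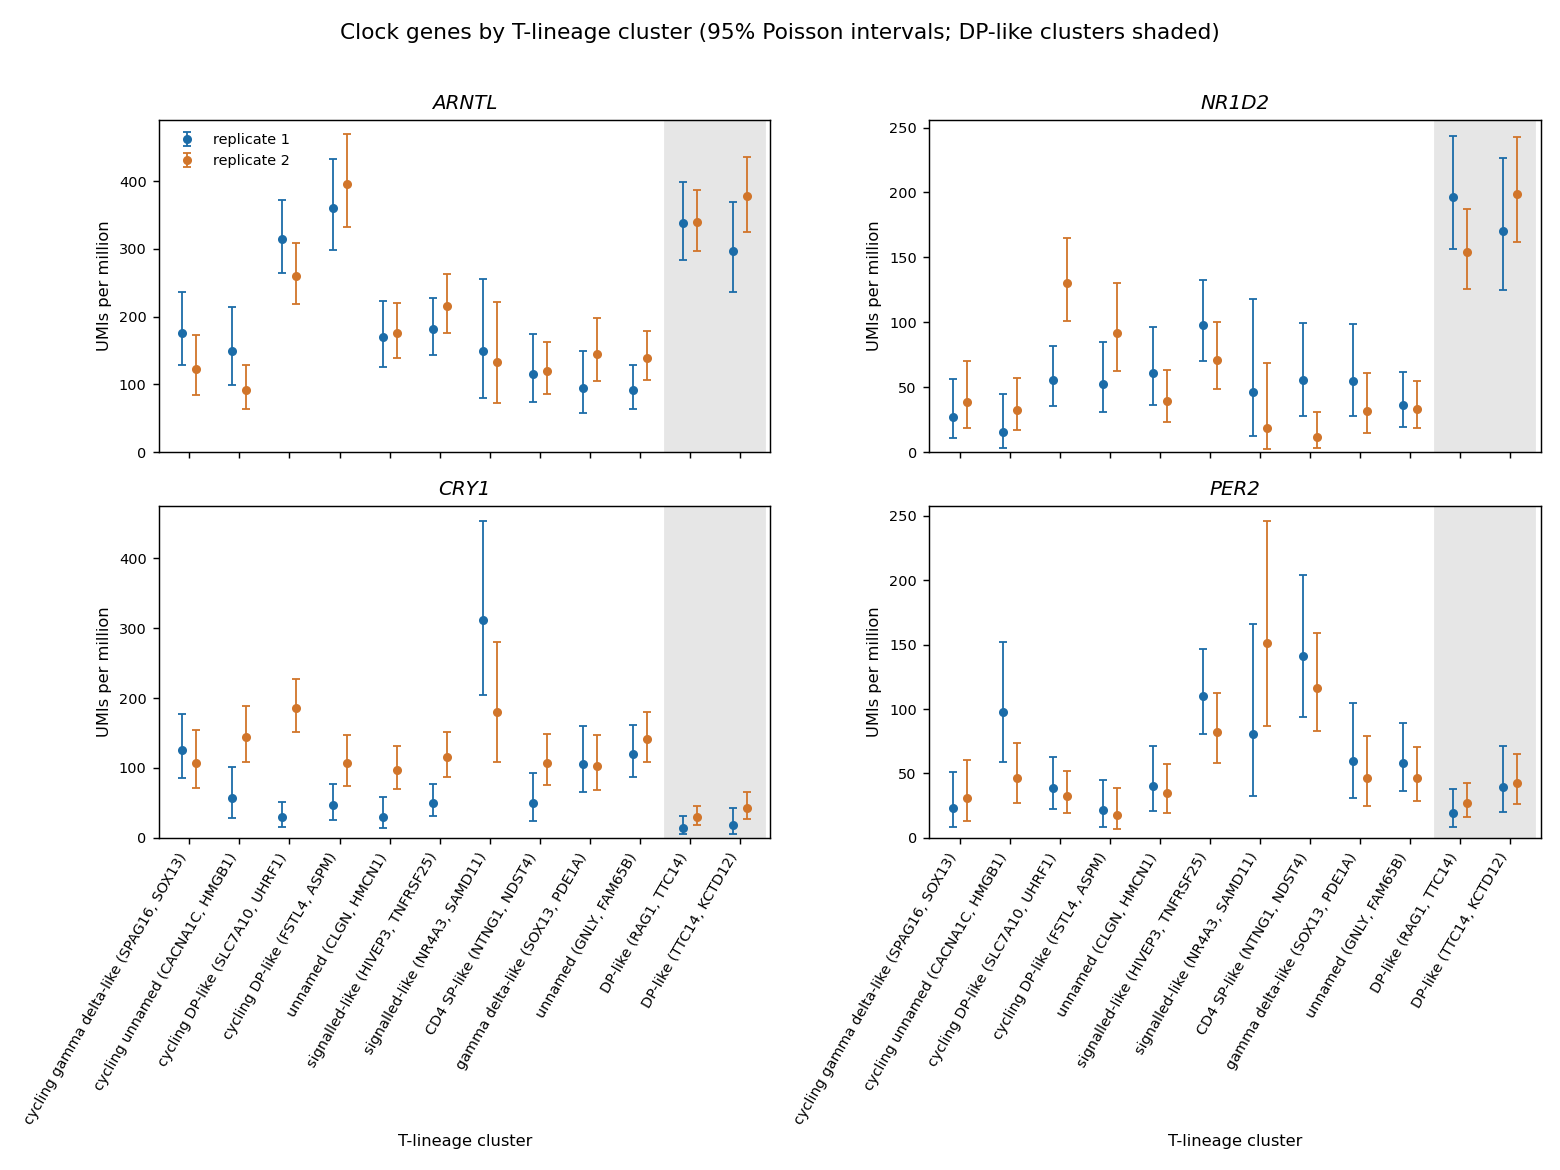
Level in CPM (y axis) of ARNTL, NR1D2, CRY1 and PER2 in each T-lineage cluster (x axis), 1 point per library with its 95% Poisson interval, which covers counting error only; the DP-like clusters are shaded. NR1D2 lies at 11.9 to 130.3 CPM outside and at 154 to 199 CPM in DP-like nuclei, where CRY1 has its lowest means, and the 2 CRY1 points part most in the UHRF1-led cycling DP-like cluster.

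**Figure D2:**
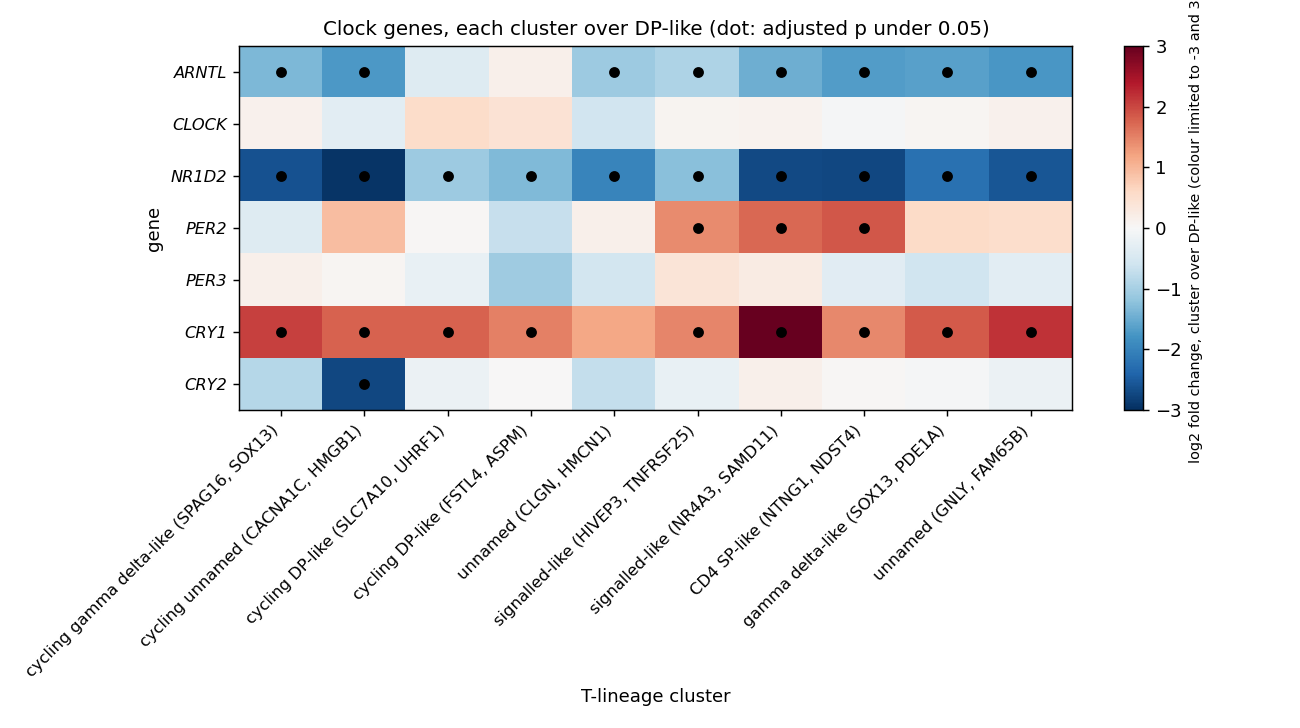
Log2 fold change of each clock gene (rows) in each of 10 T-lineage clusters (columns) over DP-like nuclei, with a dot where the edgeR adjusted p was under 0.05. Dots fill the NR1D2 row (10 of 10), 9 of 10 cells of CRY1 and 8 of 10 of ARNTL, and there are none for CLOCK or PER3.

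**Figure D3:**
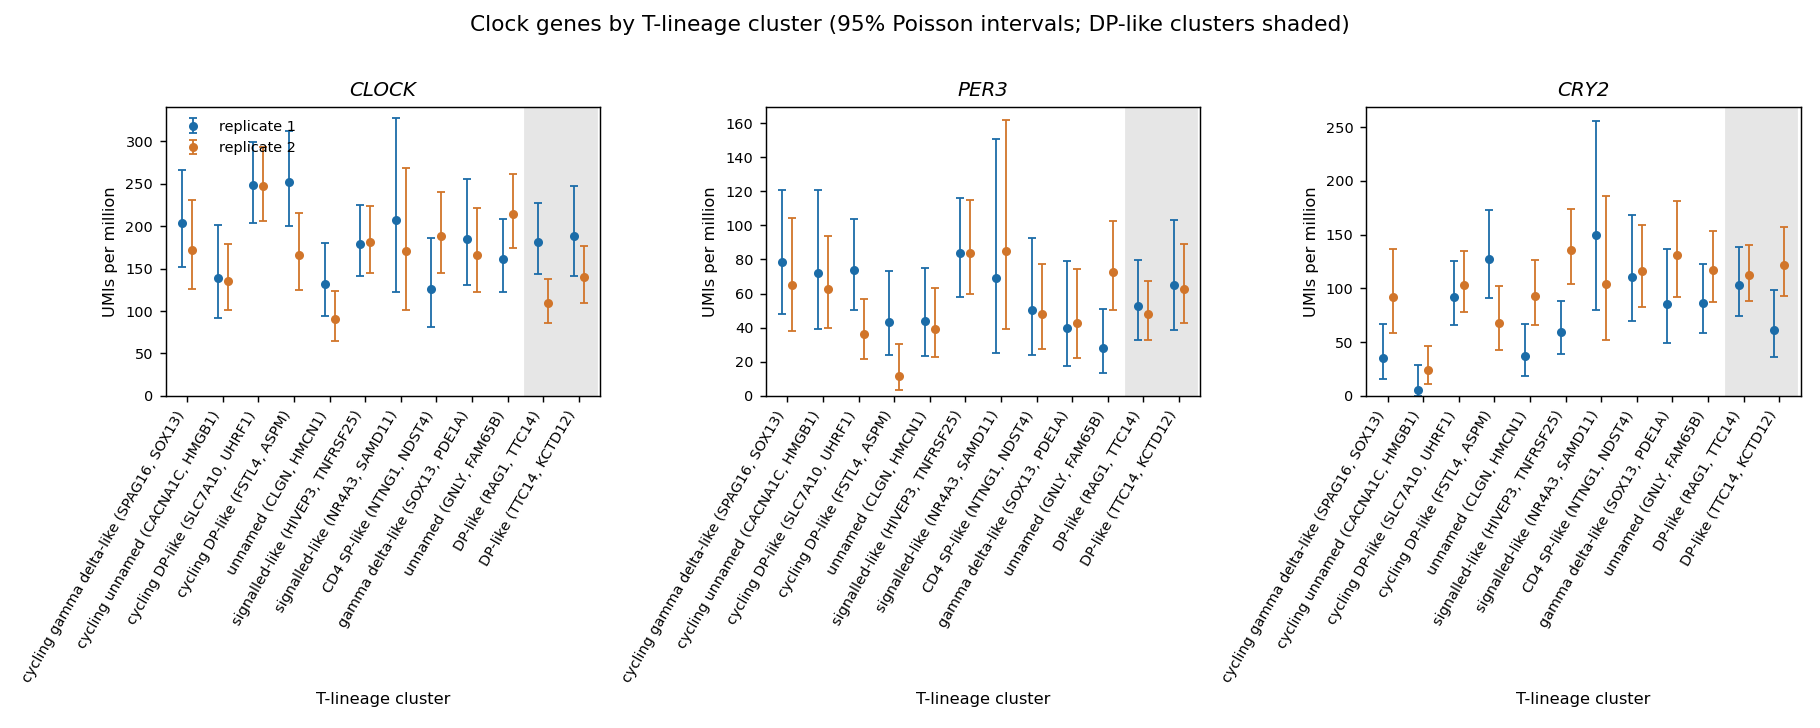
Level in CPM (y axis) of CLOCK, PER3 and CRY2 in each T-lineage cluster (x axis), 1 point per library with its 95% Poisson interval; the DP-like clusters are shaded. CLOCK and PER3 overlap between other and DP-like clusters, and CRY2 falls to 5.13 and 24.5 CPM in the CACNA1C-led cycling cluster.

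T-lineage clusters also differed in depth and in stress genes, and in each the DP-like range met that of a single other cluster. The DP-like medians were 659 and 455 UMIs per nucleus in the RAG1-led and TTC14-led clusters, against 596.5 in the HIVEP3-led cluster. T-lineage medians ran from 455 to 1345. Apart from the HIVEP3-led cluster, all clusters compared with DP-like nuclei were deeper than both DP-like clusters, at 719 or more. The summed level of 13 immediate-early and heat-shock genes was 436 to 2176 CPM in the other clusters, against 500.4 to 809.8 CPM in DP-like nuclei. Only the CLGN-led cluster, at 508 and 436 CPM, lay in or below the DP-like range. Every other cluster was above it in both libraries, from 832 CPM in replicate 1 of the CD4 single positive-like cluster. Of 9 genes of this list tested, in 90 gene-by-cluster pairs, 41 were higher and 11 lower (31 and 10 in DESeq2), where 29.0% of all pairs passed. A gene with few counts in DP-like nuclei could meet the filter on low counts only through other clusters, which in part sets the direction of its calls. This holds for FOSL2 and JUN, with log2 fold changes of up to 7.87 and 7.06. EGR1, higher in 3 clusters, was also a marker used to name the signalled-like clusters. HSP90AA1 was higher in 10 of 10 clusters and HSPA8 and HSPH1 in 9 of 10, whereas BTG2 was lower in 10 of 10 and HSPA5 in 1. The part of depth and of these genes in the clock gene differences was not tested, apart from the runs with at least 400 genes per nucleus given above.

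Cycling was examined next, since division and the clock share regulators in mammals. By the rule for cycling (S phase or mitotic marker sum at least 2 times that of all T-lineage nuclei in both libraries) the UHRF1-led, ASPM-led and CACNA1C-led clusters were cycling and the other 9 were not. In the mean of the cycling clusters ARNTL was higher by 0.44 on the log2 scale (SE 0.13, adjusted p = 0.0089) and CRY2 lower, at -0.77 (SE 0.25, adjusted p = 0.023), in edgeR. These 2 of 7 members compare with 35.4% of all tested genes (22.5% higher and 12.9% lower). The ARNTL value was 0.24 without replicate 1 and 0.66 without replicate 2, and it did not pass with doublets kept (0.04, adjusted p = 0.90) or at a coarser clustering (0.13, adjusted p = 0.54). ARNTL was not high in each cycling cluster: the CACNA1C-led one had 149 and 92.4 CPM. The UHRF1-led and ASPM-led clusters were DP-like, a stage where ARNTL was high in resting nuclei too. PER2 was at -0.56 (SE 0.22, adjusted p = 0.051), and NR1D2 at 0.00 (SE 0.24), but at -0.73 (adjusted p = 0.028) with doublets kept.

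The cycling gamma delta-like cluster missed that rule, with mitotic sums of 1.80 and 2.41 times the T-lineage level and S phase sums of 1.87 and 1.91 times. Counted as cycling, an alternative chosen after seeing the data, it changed the calls: CRY2 (-0.82, SE 0.23, adjusted p = 0.0069) and PER2 (-0.81, SE 0.20, adjusted p = 0.0032) passed and ARNTL (0.23, SE 0.12, adjusted p = 0.13) did not, where 37.7% of genes passed (22.9% higher and 14.8% lower). Among the cycling clusters CRY2 had 5.13 and 24.5 CPM in the CACNA1C-led one, while the cycling DP-like clusters had 92.0 and 103 CPM (UHRF1-led) and 127 and 68.0 CPM (ASPM-led), against 61.6 to 122 CPM in DP-like nuclei.

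The DP-like and gamma delta-like lineages were then taken singly. In cycling against resting DP-like clusters CRY1 was higher by 1.63 (SE 0.42, adjusted p = 0.0045) and CLOCK by 0.49 (SE 0.19, adjusted p = 0.046), and NR1D2 was at -1.20 (SE 0.31, adjusted p = 0.0049). ARNTL, higher in the mean of the 3 clusters cycling by the rule, was at -0.12 here (SE 0.16, adjusted p = 0.60). In the gamma delta-like lineage it was at 0.28 (SE 0.30, adjusted p = 0.78). The 3 called of 7 members stand beside 35.3% of genes (21.1% higher and 14.2% lower), and DESeq2 called 2. In cycling against resting gamma delta-like nuclei 0 of 7 passed in edgeR and 0 in DESeq2, and 0 had an unadjusted p under 0.05, where 5.2% of genes passed (3.14% higher and 2.07% lower). The difference between the lineages was itself tested: 0 of 7 members passed in edgeR or DESeq2 and 1, PER3, had an unadjusted p under 0.05, where 5.53% of genes passed (4.33% higher and 1.2% lower). PER3 was at -1.41 (SE 0.63, adjusted p = 0.24) and CRY1 at 1.43 (SE 0.70, adjusted p = 0.29).

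Epithelial-like nuclei had much less ARNTL than thymocytes and no CRY1 UMI, and they were deeper, with a median of 2733.5 UMIs per nucleus. Depth and free RNA were not tested for their part in the differences. ARNTL had 20.2 and 16.9 CPM in epithelial-like nuclei, from 4 and 6 UMIs, against 221 and 229 CPM in T-lineage nuclei. Both epithelial values lay below all 24 T-lineage cluster values. The log2 fold change was -3.54 (SE 0.95, adjusted p = 0.0066), and -3.58 without replicate 1 and -3.45 without replicate 2. Only ARNTL, CLOCK and CRY2 had enough counts for this test, and 1 of the 3 passed, where 58.1% of 3204 tested genes did (25.5% higher and 32.6% lower). A gene high in a single class could meet the filter on low counts through that class, which in part sets the direction of its call. ARNTL did so through T-lineage nuclei and CRY2 through epithelial-like nuclei.

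CRY2 had 283 and 253 CPM in epithelial-like nuclei, against 78.1 and 103 CPM in T-lineage nuclei, and no T-lineage cluster exceeded 149.8 CPM in either library. Its log2 fold change of 1.65 (SE 0.68) missed the threshold (adjusted p = 0.054). CLOCK had 288 and 282 CPM, against 187 and 163 CPM in T-lineage nuclei, at 0.80 (SE 0.36, adjusted p = 0.073). Both passed with DESeq2's scaling in edgeR (adjusted p = 0.022 for CRY2 and 0.013 for CLOCK), a scaling that raised the median log2 fold change of all genes by 0.33, to -0.16. ARNTL passed with that scaling too (-3.22, adjusted p = 0.011).

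CRY1 had 0 UMIs among 552865 of the epithelial-like nuclei. A count of 0 allows a level of up to 5.43 CPM over both libraries pooled. In the deposited counts CRY1 was thus at least 16.0-fold below the pooled T-lineage level of 87.1 CPM. In the single libraries the floor was 15.2 and 8.45 CPM, against 61.6 and 106 CPM in T-lineage nuclei, which bounds a smaller fold. HSPA8, a chaperone that most cells express, was also at 0 UMIs in epithelial-like nuclei, against 158 and 175 CPM in T-lineage nuclei, and so were CSNK2A2 and PPP1CC. The matrices are named for a tool that removes background counts, so these zeros do not show that the genes were not expressed. NR1D2 had 111 and 104 CPM in epithelial-like nuclei, against 80.4 and 85.2 CPM in T-lineage nuclei. PER2 had 55.6 and 59.1 CPM, against 56.1 and 48.5 CPM, and PER3 91.0 and 62.0 CPM, against 58.4 and 53.4 CPM. These 3 members and CRY1 did not pass the filter on low counts and have no test.

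Against the mean of B-like, macrophage-like and dendritic-like nuclei, CRY2 was higher in epithelial-like nuclei by 2.04 on the log2 scale (SE 0.63, adjusted p = 0.017 in edgeR), 1 of 3 members tested, where 52.8% of genes passed (24.0% higher and 28.8% lower). CRY2 met the filter on low counts through epithelial-like nuclei, which in part sets the direction of this call. The difference was 4.85 without replicate 1 and 2.11 without replicate 2. CRY2 had 115 and 71.3 CPM in B-like, 148 and 0 CPM in macrophage-like and 25.5 and 142 CPM in dendritic-like nuclei. Those 265 nuclei gave few UMIs, and ARNTL was at 0 in 1 library of macrophage-like and of dendritic-like nuclei, and its difference of -1.57 (SE 0.99, adjusted p = 0.21) was 0.67 without replicate 1 and 1.14 without replicate 2. PER2 reached 310 CPM from 18 UMIs in macrophage-like nuclei of replicate 2 and had 0 UMIs in replicate 1.

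**Figure D4:**
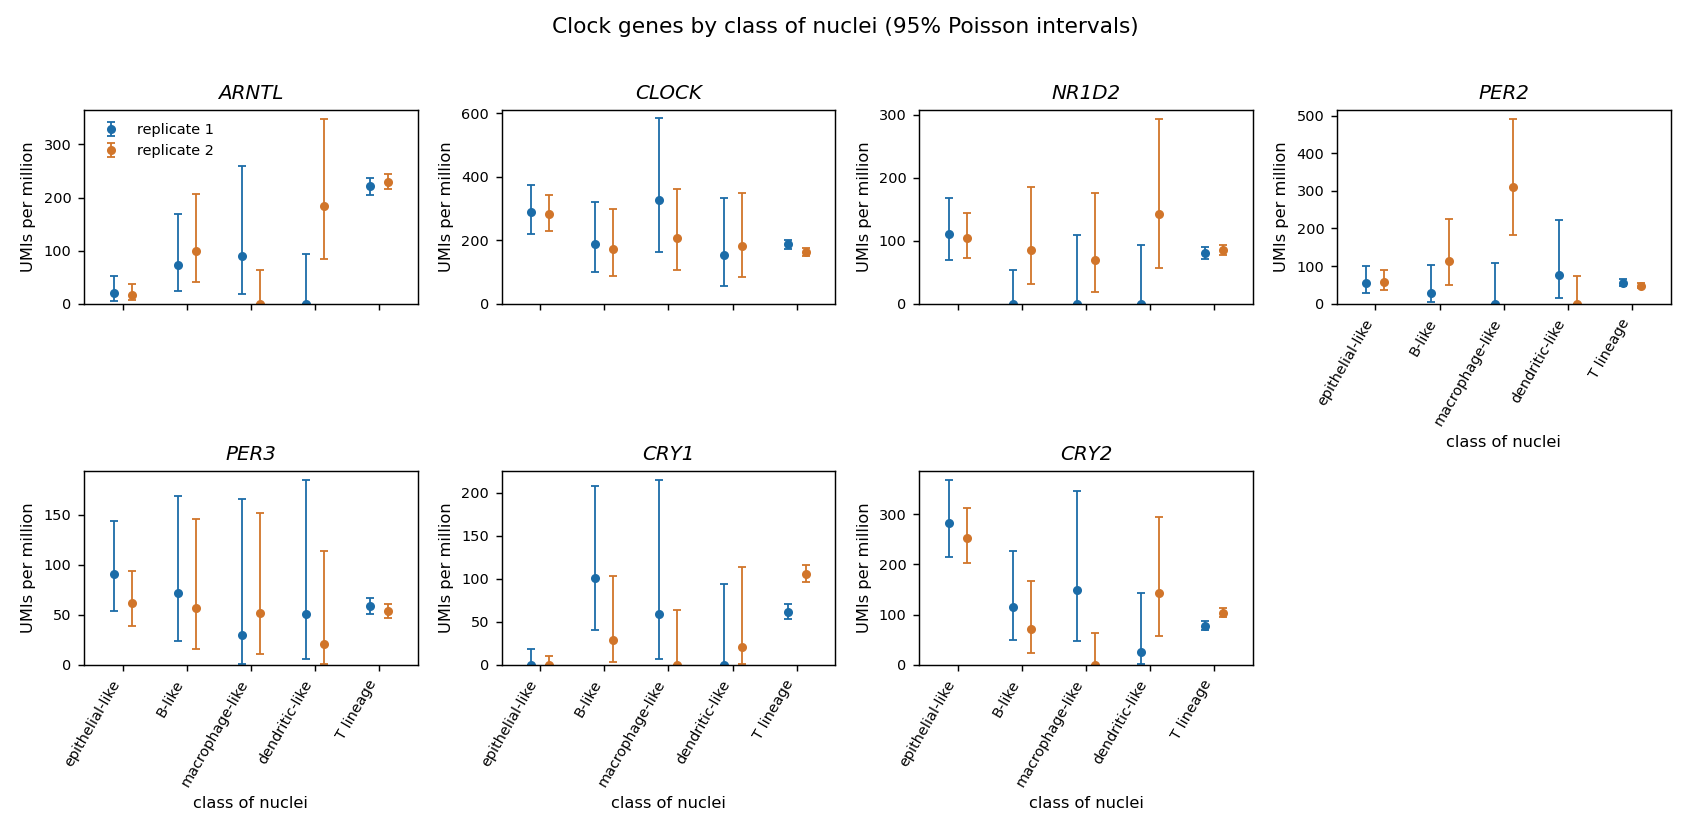
Level in CPM (y axis) of the 7 clock genes in epithelial-like, B-like, macrophage-like, dendritic-like and T-lineage nuclei (x axis), 1 point per library with its 95% Poisson interval, which covers counting error only. ARNTL lies at 16.9 to 20.2 CPM in epithelial-like against 221 to 229 CPM in T-lineage nuclei, CRY1 is at 0 in both epithelial points, and CRY2 is at 253 to 283 CPM there.

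The rest of the pathway was read from lists of known clock genes. Of 8 other activators and receptors in the matrices 3 had enough counts, and RORA, the receptor that activates ARNTL at the sites NR1D2 uses, was the 1 that passed across T-lineage clusters (adjusted p = 4.09e-07 in edgeR). Across clusters 47.2% of all tested genes passed. RORA was higher than in DP-like nuclei in 8 of 10 clusters, with log2 fold changes of 1.20 to 3.92 among them. These were the only calls in the 30 pairs of the list, where 29.0% of all gene-by-cluster pairs passed. Its level was 602 and 585 CPM in the GNLY-led cluster, against 31.7 and 33.6 CPM in DP-like nuclei. RORA and NR1D2, which act on ARNTL in opposite directions, thus stood at opposite ends in DP-like nuclei, RORA low and NR1D2 high. ARNTL was itself high in these nuclei, and the effect of either receptor on it was not tested. ARNTL2 and CIPC did not pass.

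Of 24 clock kinases, phosphatases and ubiquitin ligases 21 were tested and 9 passed across clusters, where 47.2% of all genes did. Against DP-like nuclei 16 of 210 pairs were higher and 59 lower, and 21 and 52 with DESeq2's scaling, where 29.0% of all gene-by-cluster pairs passed. The median of the list was between -0.50 and -0.19 in the 10 comparisons, where that of all genes was between -0.03 and 0.11. CSNK2A2, a catalytic subunit of casein kinase 2, was lower in 10 of 10 clusters (-2.25 to -0.76), and PPP1CC, a catalytic subunit of protein phosphatase 1, in 9 of 10. PPP1CC had 20.2 and 44.8 CPM in the CD4 single positive-like cluster, against 369 and 369.6 CPM in DP-like nuclei.

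Other members of that list moved the other way. CSNK1A1, casein kinase 1 alpha, was higher in 6 clusters (0.74 to 1.87), and PPP1CB, a sister of PPP1CC, in 7 (1.74 to 2.37). Among the ubiquitin pathway genes BTRC, which marks PER for breakdown, was lower in 8 clusters (-0.93 to -0.66), FBXW7 in 7, USP7 in 6 and FBXW11 in 4. SIRT1, a deacetylase that binds the activating pair, was lower in 4.

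**Figure D5:**
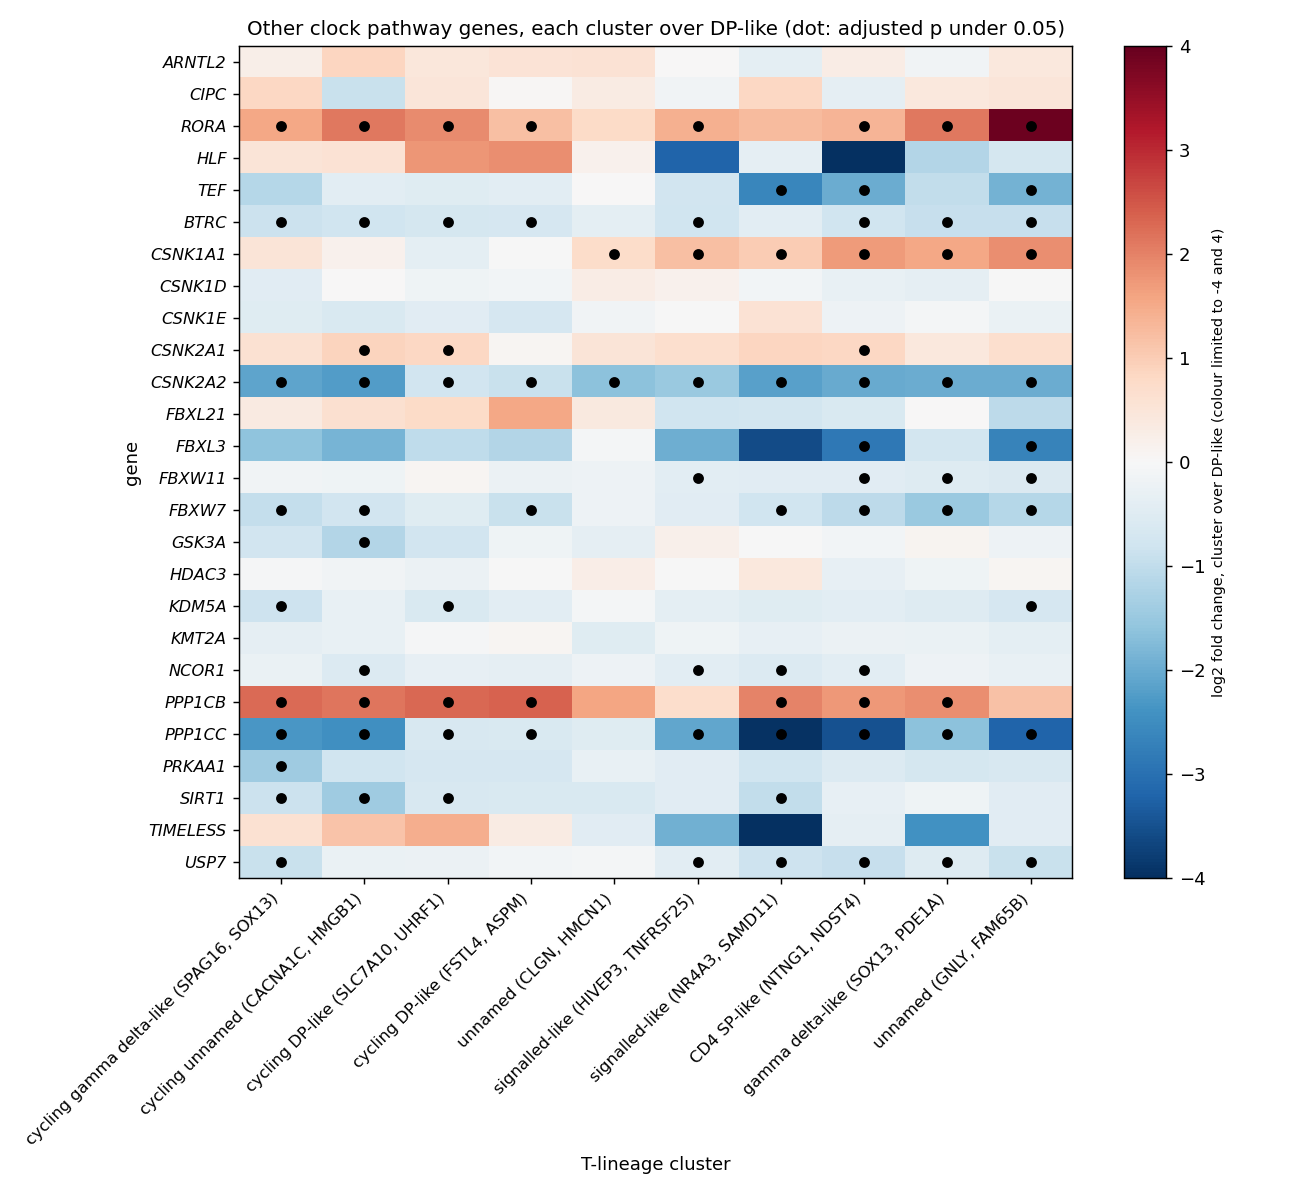
Log2 fold change of the tested genes of the other clock lists (rows) in each of 10 T-lineage clusters (columns) over DP-like nuclei, with a dot where the edgeR adjusted p was under 0.05. RORA carries 8 dots and CSNK1A1 6, all higher, and CSNK2A2 carries 10 and PPP1CC 9, all lower.

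The clock-controlled genes TEF and HLF, of the PAR bZIP family through which the clock reaches its output genes, both passed across T-lineage clusters (adjusted p = 0.024 and 0.038), as 47.2% of all tested genes did. TEF was lower than in DP-like nuclei in 3 of 10 clusters, and HLF in none. In epithelial-like nuclei HLF had 202 and 220 CPM, against 14.2 and 21.6 CPM in T-lineage nuclei, a log2 fold change of 3.67 (SE 0.76, adjusted p = 0.0013). NR3C1, the glucocorticoid receptor through which adrenal hormone resets clocks in mammals, was higher in epithelial-like nuclei, at 364 and 287 CPM against 128 and 138 CPM (1.37, SE 0.41, adjusted p = 0.012). It was the 1 of 3 tested genes of its list that passed against T-lineage nuclei. Against the mean of B-like, macrophage-like and dendritic-like nuclei, 0 of the 3 were higher in epithelial-like nuclei and 1 was lower. With DESeq2's scaling it was 1 and 1. HLF and NR3C1 met the filter on low counts through epithelial-like and not through T-lineage nuclei, which in part sets the direction of their calls. Against DP-like nuclei NR3C1 was lower in 4 of 10 T-lineage clusters. DUSP1 of that list was higher in 3 (5.38 to 7.42) in edgeR and FKBP5 passed in none, where 29.0% of all gene-by-cluster pairs passed. A gene so much lower in DP-like nuclei could meet the filter through the other clusters, which in part sets the direction of the DUSP1 calls. In DESeq2 the whole list kept 1 higher call. Of 14 clock kinases, phosphatases and ligases with enough counts, 8 were lower in epithelial-like than in T-lineage nuclei and 0 higher (6 and 0 with DESeq2's scaling), with a median of -1.29 beside -0.49 for all tested genes. Of all tested genes 32.6% were lower and 25.5% higher. CSNK2A2 and PPP1CC, at 0 UMIs there, were among the 8. They met the filter on low counts only through other classes, so only a lower call was open to them.

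The members did not share a single pattern. Over the 12 T-lineage clusters, which share a library and its depth, Pearson's r of log2(CPM + 10) between ARNTL and NR1D2 was 0.52 in replicate 1 and 0.89 in replicate 2. Between ARNTL and CRY1 it was -0.64 and -0.57, and between ARNTL and PER2 -0.65 and -0.51. ARNTL and CLOCK, the activating pair, had 0.59 in replicate 1 and -0.14 in replicate 2. The same gene compared between the libraries over the 12 clusters gave 0.84 for ARNTL, 0.83 for PER2, 0.70 for CRY2, 0.68 for NR1D2 and 0.64 for CRY1. It gave 0.42 for CLOCK and 0.35 for PER3, the members that did not pass across clusters. These values are descriptions over 12 points.

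Some genes had closely similar patterns over the 24 T-lineage cluster and library values, by Pearson's r of log2(CPM + 10) among 6704 genes with a symbol. Nearest to ARNTL were CHST11 (0.91), PHF2 (0.90) and MAGI1 (0.89). Nearest to NR1D2 were FAM83F (0.88), CCDC39 (0.86) and RAB7A (0.86). For PER2 they were PRNP (0.83), NKAIN3 (0.83) and CEP164 (0.83), and for CRY1 ABHD12 (0.84), LMAN2L (0.84) and UEVLD (0.83). CRY2 came nearest to TMEM123 (0.77), CD3D (0.76) and PTPRC (0.76). For CLOCK the nearest were ATP13A2 (0.75), HDLBP (0.71) and TSPAN5 (0.68), and for PER3 DDX46 (0.68), ETF1 (0.64) and UPF1 (0.63). These were the lowest values of the members, and CLOCK and PER3 themselves had r of only 0.42 and 0.35 between the libraries.

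By mean level, the T-lineage order for ARNTL began with the ASPM-led cycling DP-like cluster, the RAG1-led and TTC14-led DP-like clusters and the UHRF1-led cycling DP-like cluster, of which neighbours overlapped apart from the first and second. A gap followed, then the HIVEP3-led cluster and, after a second gap, 7 clusters whose neighbours all overlapped. For CRY1 the NR4A3-led cluster had the highest mean and did not overlap its neighbour in the order, the GNLY-led cluster. It did overlap the UHRF1-led cluster, which had 186 CPM in replicate 2. All neighbours lower in the order overlapped. For NR1D2 the only gap lay between the DP-like clusters and the rest. For PER2 the CD4 single positive-like cluster came first and the ASPM-led cycling DP-like cluster last, and for CRY2 the only gap was above the CACNA1C-led cluster.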

How the data were processed

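Chicken thymus nuclei were profiled by droplet RNA sequencing in 2 libraries (4826743 and 6570941 UMIs). The authors deposited UMI counts as whole numbers for each gene and barcode, made with Cell Ranger 7.0.1 on GRCg7b per the submitters' processing notes; matrix names refer to CellBender, which removes free RNA, with settings not given in the sources used here. Per the labels' protocols, the annotation was limited to protein-coding and long non-coding genes, and their accounts of the kit and the sequencer differ from sentence to sentence. Nuclei with at least 200 genes and at most 5% mitochondrial UMIs were kept, and the 6% with the highest doublet scores removed (311 and 335). Clusters (leidenalg 0.10.2) came from 2000 variable genes, 30 principal components, 15 neighbours and Leiden resolution 1, with 60 genes of the clock and related lists held out. Clusters were named from marker lists by score limits set after the data were seen, so names can differ from the study's.

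Counts were summed per library and cluster. edgeR 4.0.16 (TMM, filterByExpr, quasi-likelihood, library as a block because clusters of 1 library share it) gave Benjamini-Hochberg adjusted p over all tested genes, with a threshold of 0.05. On simulated data for the HIVEP3-led comparison it recovered 24 of 93 2-fold and 69 of 95 4-fold changes, with 3 false calls. The simulated data held far fewer changed genes than the 25.5% called in the real comparison, so these rates need not carry over. A gene that did not pass may still differ by 2-fold. CPM intervals are exact Poisson at 95% and floors are 3 counts. Alternatives, DESeq2 1.42.0 among them, are given in the closing section; calling clusters cycling by score was chosen after seeing the data. Members and lists were chosen with earlier results of these data known. Named genes were the 7 members, list genes past the threshold and the 3 genes most like each member.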

Additional observations from a re-analysis of the deposited data

How the results depend on the processing

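The count of member-by-cluster pairs called against DP-like nuclei (31) was 16 at resolution 0.7 and 19 with at least 400 genes per nucleus, where fewer clusters or nuclei were compared, and 22 to 32 under the other alternatives. Without the replicate block 3 of 7 members passed across clusters (5 with it), 2 of 3 for epithelial-like against the other non-T classes, and 3 of 3 against T-lineage nuclei; the block stands for the shared library. Against T-lineage nuclei 3 of 3 members also passed with RLE size factors, DESeq2, doublets kept, at least 400 genes and separate UMIs for clustering and testing, and 2 at resolution 0.7 (1 of 3 in the main analysis). With no filter all 7 members were tested, and 3 passed against T-lineage nuclei. Against the other non-T classes 2 passed with RLE size factors, DESeq2 or doublets kept, and 3 with no filter, where all 7 were tested. For cycling against resting clusters 1 member passed at resolution 0.7 or with separate UMIs, and 3 with RLE size factors or at least 400 genes, in place of 2. Among alternatives that kept both replicates, the differences that changed sign had not passed in the main analysis. NR1D2 in cycling clusters (0.00) was -0.0041 with RLE, -0.020 with DESeq2 and -0.73 with doublets kept (adjusted p = 0.028, in edgeR). It was -0.36 at resolution 0.7, -0.27 at 1.5, -0.22 with separate UMIs, -0.0087 without the block and -0.30 with cycling clusters by score. With at least 400 genes CRY1 in cycling clusters was -0.15, and the cycling difference between lineages was -0.0087 for CLOCK and -0.58 for PER2. The cause was not tested. Of 467 single-gene values, 401 kept direction and side of the threshold, 34 lost a call and 21 gained one. The comparison between lineages was not run at resolution 0.7 or with separate UMIs, nor that with the other non-T classes there or with at least 400 genes, because the classes were not named. Leaving out a replicate gives values with no test. Some of these changed sign too, such as NR1D2 in cycling clusters, at 0.68 without replicate 1 and -0.90 without replicate 2. CRY1 had 11 and 41 UMIs and PER2 19 and 39 UMIs in DP-like nuclei, which limits the precision of their folds.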
